A study of Mus musculus with 8 samples.

Results

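The 10 genes described here, Acly, Acss2, Acaca, Fasn, Elovl6, Scd1, Scd2, Fads1, Fads2 and Lpin1, code for the enzymes that make, lengthen and desaturate fatty acids and for a phosphatase that passes them on to storage lipid. They were taken by symbol from this pathway, with earlier results of these data known. All 10 were found by symbol among the 24460 genes of the count files, and all 10 passed the filter that left 14296 genes for testing. RNA came from wild type MEFs, fibroblasts grown from mouse embryos, cultured with 0 µM (3 libraries), 2 µM (3 libraries) or 10 µM (2 libraries) of RHPS4, a compound that binds G-quadruplexes, the four-stranded structures that guanine-rich DNA can fold into. The libraries were stranded and depleted of nuclear ribosomal RNA, and all groups shared the same high-glucose medium with serum. The labels do not say whether the libraries of a dose came from separate cultures, so p-values measure only the spread between these libraries, and they do not give the hours of exposure for each library.

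In the cytosol, ATP citrate lyase (Acly) cleaves citrate and acetyl-CoA synthetase (Acss2) activates acetate, and both yield the acetyl-CoA from which fat is built. Acetyl-CoA carboxylase (Acaca) turns it into malonyl-CoA, fatty acid synthase (Fasn) assembles palmitate, Elovl6 lengthens palmitate to stearate, Scd1 and Scd2 set the double bond of oleate and palmitoleate, Fads1 and Fads2 desaturate the polyunsaturated acids, and Lpin1 makes diacylglycerol from phosphatidate. Many of these genes are known targets of the sterol regulatory element binding proteins SREBP1 and SREBP2. When sterols are plentiful, the INSIG proteins hold these back in the endoplasmic reticulum, together with their escort SCAP.

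In GRCm38, the assembly named mm10 to which the reads were aligned, Scd2 (chr19:44293674-44306864, plus strand) and Scd1 (chr19:44394455-44407879, minus strand) lie near each other. So do Fads2 (chr19:10062765-10101746, minus strand) and Fads1 (chr19:10182888-10196877, plus strand). Whether other genes lie between them was not examined. Acaca (chr11:84129672-84401651, plus strand), Acly (chr11:100476353-100528000, minus strand) and Fasn (chr11:120805846-120824547, minus strand) share chromosome 11. Acss2 lies at chr2:155517948-155585724 on the plus strand, Elovl6 at chr3:129532355-129638495 on the plus strand and Lpin1 at chr12:16535669-16610966 on the minus strand.

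RefSeq promoters, the 250 bases before the RefSeq start in GRCm38.p6, were at hand for 7 of the 10 genes. The coordinates of the genes above are those of GENCODE, which can start elsewhere. Of the 250 bases, 243 lay in an exon of the GENCODE model in Fads2, 95 in Acss2 and 31 in Elovl6, and the window of Acaca lay whole in introns of its gene, whereas those of Fasn, Acly and Lpin1 lay outside. The windows of 3 genes with lower levels at 10 µM (Fasn, Elovl6, Acly) and of the gene that was higher there (Acss2) are shown as examples. They run 5′ to 3′ on the strand of the gene without the bases in such exons. Capitals mark each CCAAT box (letters CCAAT, or ATTGG where it lies on the other strand) and each G-quadruplex pattern (4 runs of GGG with 1 to 7 bases between them, seen as runs of C where it lies on the other strand).
Fasn (chr11:120824548-120824797, minus strand): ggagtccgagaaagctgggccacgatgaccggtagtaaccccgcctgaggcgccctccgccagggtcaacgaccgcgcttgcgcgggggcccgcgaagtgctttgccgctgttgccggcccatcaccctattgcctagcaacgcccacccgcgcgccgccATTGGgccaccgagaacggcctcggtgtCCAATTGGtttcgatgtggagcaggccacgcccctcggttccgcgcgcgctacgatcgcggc
Elovl6 (chr3:129532136-129532354, plus strand): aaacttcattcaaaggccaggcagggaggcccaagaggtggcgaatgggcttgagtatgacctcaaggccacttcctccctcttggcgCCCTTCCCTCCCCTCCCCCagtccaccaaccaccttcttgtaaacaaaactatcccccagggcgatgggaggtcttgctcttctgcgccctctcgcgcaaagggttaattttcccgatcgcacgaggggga
Acly (chr11:100528001-100528250, minus strand): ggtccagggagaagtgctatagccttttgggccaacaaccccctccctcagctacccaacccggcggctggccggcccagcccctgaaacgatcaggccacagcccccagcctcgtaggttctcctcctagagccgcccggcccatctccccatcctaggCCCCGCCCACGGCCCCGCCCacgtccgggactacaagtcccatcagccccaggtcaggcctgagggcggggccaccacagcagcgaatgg
Acss2 (chr2:155517793-155517947, plus strand): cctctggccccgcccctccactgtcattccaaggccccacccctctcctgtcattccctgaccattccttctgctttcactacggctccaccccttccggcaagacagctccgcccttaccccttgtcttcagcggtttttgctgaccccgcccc

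Over the whole windows, Fasn held 3 CCAAT matches, at 90, 62 and 59 bases before the RefSeq start, of which the last pair overlaps in the letters CCAATTGG, and Acss2 held 1 at 73 bases, in the stretch not shown. Of all 32851 RefSeq promoters of this length, 33.8% hold CCAAT on either strand. The G-quadruplex pattern stood at 162 bases before the RefSeq start in Elovl6, at 90 in Acly and at 175 in Fads2, there within the exon, against 16.7% of all promoters. The GC box (GGGCGG on either strand) had 4 matches each in Acss2 and Acly and 1 in Fads2, against 32.7% of all promoters with at least 1 match. The letters TCACNCCAC, a form of the sterol regulatory element, were in none of the 7 promoters on either strand, against 1.05% of all promoters. CACGTG was in none of the 7 either, against 6.02%. The same window of Insig1, itself a known SREBP target, held no TCACNCCAC either, and CACGTG at 101 bases before its start. For letters this rare, none in 7 does not show that these genes lack such an element. A match is a run of letters in this window and does not show that a factor binds there.

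The libraries held between 10455965 and 26688121 counts, so that 3 counts equalled 0.112 to 0.287 CPM, counts scaled to library size, a floor that covers counting error only. Replicates of a dose differed by chi-squares of 3.62 to 24.1 per degree of freedom, more than counting noise, so none was taken as a copy of another. This does not show that they came from separate cultures. The 0 µM replicate 1, the smallest library, stood apart from the other 0 µM libraries (18.4 and 24.1, against 3.62 between those). Transcripts of mtDNA took 13.7% of the counts at 0 µM, 7.97% at 2 µM and 5.82% at 10 µM on average. TMM factors from nuclear genes alone moved the median log2 fold change of all genes by −0.0014 at 10 µM against 0 µM. They called the same 4 of the 10 genes there, whereas total counts alone moved this median by 0.21 and called none of these 4. The libraries carried fibroblast markers (9 of 9 tested, summed 12753 to 13260 CPM at 0 µM, 11425 to 11771 at 2 µM and 11122 to 11704 at 10 µM, with Pdgfrb called in 1 or more comparisons). Fat cell markers, the cell type in which these enzymes are best known, summed to 4.87 to 6.75 CPM in every library, with 5 of 8 tested and none called, and Adipoq, the defining one, was at 0.353 CPM or less. Epithelial markers summed to at most 4.14 CPM, endothelial ones to at most 5.47 and muscle ones to at most 1.73. Macrophage and leukocyte markers summed to 22.9 to 24.2 CPM at 0 µM, 18.0 to 20.6 at 2 µM and 15.5 to 17.8 at 10 µM, with Cd14 called, and their part in the results was not tested. In such bulk RNA, fewer cells that make a transcript and less of it per cell cannot be told apart.

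Together the 10 genes took 0.494 to 0.543% of all counts at 0 µM, 0.480 to 0.493% at 2 µM and 0.390 to 0.415% at 10 µM. Scaled by edgeR's TMM factors they summed to 5360, 5668 and 5659 CPM at 0 µM, to 4816, 4893 and 4868 CPM at 2 µM and to 3814 and 3551 CPM at 10 µM, so that the 3 doses did not overlap. The sum leans on Scd2, which alone averaged 2586 CPM at 0 µM, 2079 at 2 µM and 1623 at 10 µM. Acly, Acaca and Fasn overlapped between 0 and 2 µM. To order the genes by level, CPM were divided by the kilobases of all exons of the GENCODE model, merged over its transcripts. This length, 17074 bases for Acaca and 10163 for Acss2, can exceed that of the transcript the cells make. The order rests on these lengths, and others were not tried. At 0 µM Scd2 led with 473 ± 14.4 CPM per kilobase (SD, n = 3), followed by Scd1 at 106 ± 1.56, Acly at 103 ± 7.24, Fads1 at 85.0 ± 4.05 and Fasn at 80.5 ± 14.3. Fads2 followed at 32.7 ± 1.31, Elovl6 at 28.1 ± 1.13, Acaca at 15.8 ± 0.246, Lpin1 at 5.48 ± 0.190 and Acss2 at 1.40 ± 0.0743. With these lengths, Scd1 and Acly overlapped in their libraries, as did Fads1 and Fasn, whereas every other neighbour in this order was separate in all 3 libraries.

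Changes are given as log2FC, the log2 fold change between doses, with its standard error (SE). A gene was called changed at an adjusted p under 0.01 (edgeR's quasi-likelihood test, Benjamini-Hochberg over the 14296 genes, 1 fit over all 8 libraries) and a fold change over 1.5. At 2 µM against 0 µM, 1 of the 10 genes was called, Lpin1, which fell, where 0.378% of all tested genes were called lower and 0.497% in either direction. At 10 µM against 0 µM, 4 fell (Fasn, Elovl6, Scd2 and Fads2) and none rose, where 1.14% of the tested genes were called lower and 1.95% higher. At 10 µM against 2 µM, Fasn and Elovl6 fell and Acss2 rose, where 1.59% were called lower, 3.92% higher and 5.51% in either direction. With the same p and any fold, 6 of the 10 were lower at 10 µM than at 0 µM (Acly and Scd1 in addition) where 2.46% of the tested genes were lower and 2.77% higher, and 5 were lower and 1 higher than at 2 µM where 5.13% and 5.63% were. At 2 µM against 0 µM this rule gave Lpin1 alone, where 0.546% of the tested genes were lower. The comparisons with 0 µM share the untreated libraries, and each treated group also enters the comparison of 10 with 2 µM.

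The libraries of 2 µM all lay below those of 0 µM for 7 of the 10 genes, where this held for 12.9% of the tested genes. At 10 µM 9 of the 10 lay below all 0 µM libraries and Acss2 lay above them, where 20.0% lay below and 22.9% above. Against 2 µM, 7 lay below and Acss2 above, where 24.9% and 27.0% did. The median log2 fold change of the 10 genes was −0.15 at 2 µM, −0.46 at 10 µM and −0.34 between 10 and 2 µM, and over all tested genes it was −0.01, 0.02 and 0.03. When libraries were scaled by their total counts alone, the median of all genes moved up by 0.08, 0.21 and 0.14 in the 3 comparisons, and the calls of Fasn, Elovl6, Scd2 and Fads2 at 10 µM against 0 µM and of Lpin1 at 2 µM were lost. Under that scaling the 4 genes were still lower at 10 µM, with log2 fold changes of −0.60, −0.57, −0.46 and −0.45, and the genes called at 10 µM against 0 µM shifted from 279 higher and 163 lower to 846 higher and 68 lower.

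**Figure D1:**
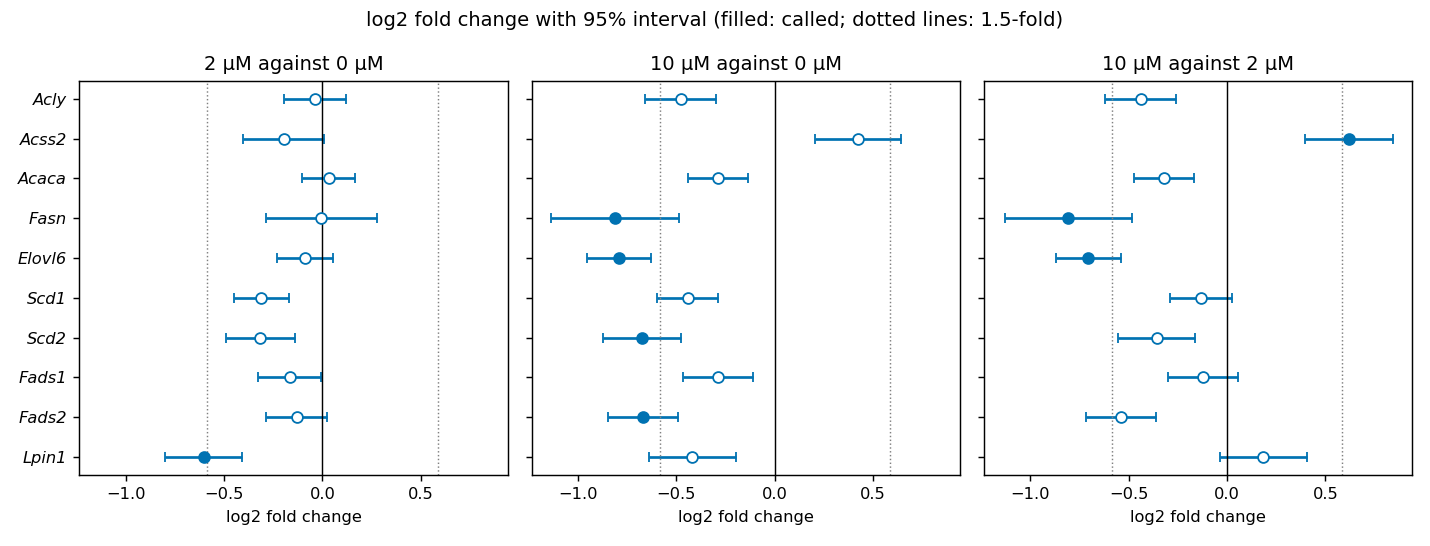
Log2 fold change (x axis) of each of the 10 genes in the 3 comparisons, with its 95% interval; filled points were called and the dotted lines mark 1.5-fold in either direction. At 10 µM against 0 µM 9 genes lie left of 0 and Acss2 lies right of it at 0.42.

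Acly and Acss2 supply the acetyl-CoA. Acly had 586, 519 and 522 CPM without RHPS4, 546, 519 and 518 under 2 µM and 385 and 394 under 10 µM. The 0 and 2 µM libraries overlapped and both 10 µM libraries lay below all others. The mean of 389 ± 6.46 CPM (SD, n = 2) at 10 µM was 1.39-fold below the 542 ± 38.2 (SD, n = 3) of 0 µM, a log2FC of −0.48 ± 0.0814 (SE, edgeR adjusted p = 0.00348), which passed the p but not the fold threshold.

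Acss2 went the other way. It had 13.7, 14.0 and 15.1 CPM without RHPS4, 12.7, 12.0 and 12.8 under 2 µM and 18.4 and 20.1 under 10 µM, from 132 counts in the smallest library upward. The 2 µM libraries were the lowest and the 10 µM libraries the highest, with no overlap between doses. From 2 to 10 µM Acss2 rose 1.54-fold, a log2FC of 0.62 ± 0.102 (SE, edgeR adjusted p = 0.00169), whereas the 0.42 ± 0.0990 against 0 µM (SE, adjusted p = 0.0168) was not called. The call against 2 µM was lost without 2 µM replicate 2 (0.59, adjusted p = 0.0116) and without 10 µM replicate 2 (0.52, adjusted p = 0.0272), and with DESeq2 or with no filter on low counts (0.58 in both), while total counts alone gave a call against 0 µM (0.64, adjusted p = 0.00124). Exons on the opposite strand from Ggt7, Acss2os and Gss cover 1.94%, 3.30% and 3.89% of the exon bases of Acss2, and whether the counting used the strand is not given in the sources used here.

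Within a library, where scaling plays no part, the log2 ratio of Acss2 to Acly counts was −5.41, −5.21 and −5.11 without RHPS4, −5.42, −5.43 and −5.33 under 2 µM and −4.38 and −4.29 under 10 µM. The ratio was thus higher at 10 µM in both libraries than in any other, by 0.91 against 0 µM, with a pooled SD of 0.133, and by 1.06 against 2 µM, with a pooled SD of 0.0580. The two-sided exact permutation test gave p = 0.2 for each, the smallest value that 2 libraries against 3 allow, so no ratio with 10 µM could reach significance. Over the 15 such tests of 5 ratios, the lowest Benjamini-Hochberg adjusted p was 0.333.

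**Figure D2:**
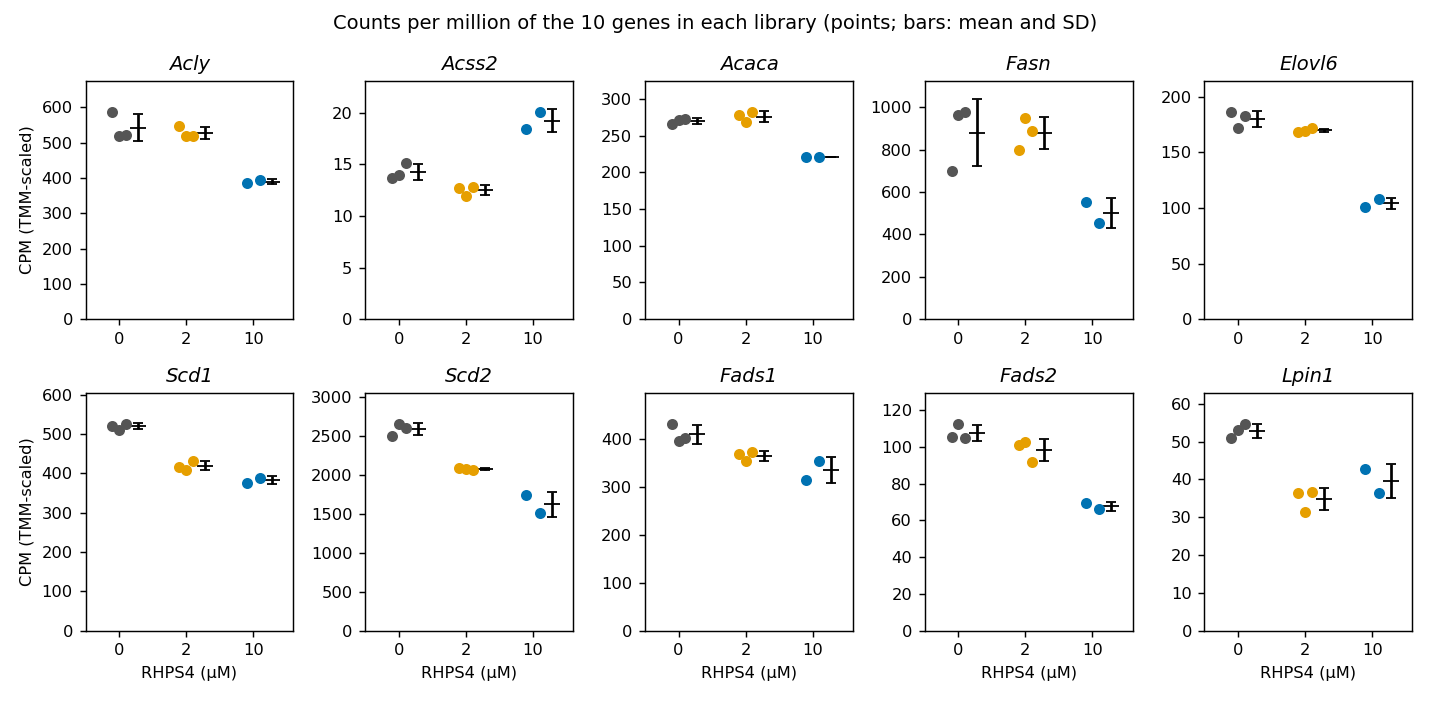
CPM (y axis, from 0, TMM-scaled) of the 10 genes in each library at 0, 2 and 10 µM RHPS4 (x axis); points are libraries, and the bar beside each dose gives the mean and SD. Acss2 alone has both 10 µM libraries at the top, and Fasn shows the 0 µM library that lies below the others.

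Acaca and Fasn carry out the committed step and the assembly of palmitate. Acaca had 266, 272 and 273 CPM without RHPS4, 278, 268 and 282 under 2 µM and 221 and 222 under 10 µM. The first pair of doses overlapped and 10 µM lay 1.22-fold below 0 µM (log2FC −0.29 ± 0.0690, SE, with edgeR adjusted p = 0.0189), which was not called. Of its 75-base stretches, 26.2% also occur in transcripts of Gm5182, and a read from these cannot be placed by its own letters alone. Whether the other read of its pair places it was not examined.

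Fasn, the synthase, had 699.8, 965 and 977 CPM without RHPS4, 798, 948 and 887 under 2 µM and 552 and 453 under 10 µM. The 0 and 2 µM libraries overlapped, 0 µM replicate 1 was far below its fellows, and both 10 µM libraries were below all others. Fasn fell from 881 ± 157 CPM (SD, n = 3) at 0 µM to 502 ± 69.9 (SD, n = 2) at 10 µM, or 1.75-fold (log2FC −0.81 ± 0.148, SE, with edgeR adjusted p = 0.00489), and by as much from 2 µM (−0.81, adjusted p = 0.00316). Between 0 and 2 µM its log2 fold change was −0.0057 with a 95% interval from −0.29 to 0.28. Without 0 µM replicate 1 the change at 10 µM was −0.98 (edgeR adjusted p = 0.000130).

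The call for Fasn against 0 µM was the least stable of the 4. It was lost without 0 µM replicate 2 (adjusted p = 0.0221), 0 µM replicate 3 (0.0186), 2 µM replicate 2 (0.0113), 10 µM replicate 1 (0.0117) or 10 µM replicate 2 (0.0565), and when only the libraries of both doses were fitted (0.0192), with edgeR's quasi-likelihood test throughout. DESeq2 gave −0.85 with an adjusted p of 2.81e-07. Against 2 µM the call was lost without 2 µM replicate 2 (edgeR adjusted p = 0.0173) and without 10 µM replicate 2 (0.0326). The log2 fold change against 0 µM stayed between −0.99 and −0.70 over the fits that left out 1 library.

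Elovl6, the elongase that follows Fasn, had 186, 172 and 183 CPM without RHPS4, 168, 169.6 and 172 under 2 µM and 101 and 108 under 10 µM. The libraries of 0 and 2 µM were close to each other, and those of 10 µM were far below both. From 180.4 ± 7.29 CPM (SD, n = 3) at 0 µM Elovl6 fell 1.73-fold to 104 ± 5.20 (SD, n = 2) at 10 µM, a log2FC of −0.79 ± 0.0748 (SE, edgeR adjusted p = 6.42e-05), the lowest adjusted p of the 10 genes. From 2 to 10 µM it fell by 0.70 ± 0.0748 on the log2 scale (SE, edgeR adjusted p = 0.000116), and between 0 and 2 µM its log2 fold change was −0.09 with a 95% interval from −0.23 to 0.06. Over the fits that left out 1 library, its change against 0 µM lay between −0.87 and −0.77 and was called in each.

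The ratio of Elovl6 to Fasn within a library averaged −2.27 ± 0.316 on the log2 scale at 0 µM (SD, n = 3), −2.37 ± 0.119 at 2 µM (SD, n = 3) and −2.26 ± 0.274 at 10 µM (SD, n = 2). The doses overlapped and the difference between 10 and 0 µM, 0.01, was smaller than the pooled SD of 0.302 (two-sided exact permutation test, p = 1.0). Its sign changed with the library left out, from −0.18 without 10 µM replicate 2 to 0.20 without 10 µM replicate 1.

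Scd1 and Scd2 are stearoyl-CoA desaturases. Scd1 had 521, 511 and 526 CPM without RHPS4, 416, 409 and 431 under 2 µM and 375 and 389 under 10 µM. Its 3 doses did not overlap, and the step from 0 to 2 µM was larger than that from 2 to 10 µM. The log2 fold change was −0.31 ± 0.0632 at 2 µM (SE, edgeR adjusted p = 0.0254) and −0.44 ± 0.0715 at 10 µM (SE, adjusted p = 0.00257), neither of which reached 1.5-fold, and −0.13 between 10 and 2 µM (95% interval −0.29 to 0.02). DESeq2 gave the change at 2 µM an adjusted p of 0.00627, again under 1.5-fold.

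Scd2, the most abundant of the 10, had 2499.5, 2654 and 2603 CPM without RHPS4, 2092, 2080.2 and 2063 under 2 µM and 1736 and 1509 under 10 µM. The doses followed each other downward without overlap. At 2 µM its log2 fold change was −0.31 ± 0.0791 (SE, edgeR adjusted p = 0.0495), which was not called. At 10 µM it fell 1.59-fold from 2586 ± 78.9 CPM (SD, n = 3) to 1623 ± 160.3 (SD, n = 2), with a log2FC of −0.67 ± 0.0901 (SE, edgeR adjusted p = 0.000768). With only the libraries of 0 and 10 µM in the fit the adjusted p was 0.0103 and the call was lost, while each fit that left out 1 library kept it.

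Scd2 exceeded Scd1 in counts 4.80-, 5.19- and 4.95-fold without RHPS4, 5.03-, 5.08- and 4.78-fold under 2 µM and 4.63- and 3.88-fold under 10 µM. The ratio overlapped between 0 and 2 µM and both 10 µM libraries were below all others, by 0.23 on the log2 scale against 0 µM with a pooled SD of 0.115 (p = 0.2 by the exact two-sided permutation test, which allows no smaller value). The size rested on 10 µM replicate 2, without which the difference was −0.10. Few reads can be confused between the pair, since 3.15% of the 75-base stretches of Scd1 and 1.78% of those of Scd2 occur in other genes.

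The log2 ratio of Scd1 to Fasn was −0.43, −0.92 and −0.89 without RHPS4, −0.94, −1.21 and −1.04 under 2 µM and −0.56 and −0.22 under 10 µM. The 2 µM libraries lay below all others, by 0.32 on average against 0 µM (exact two-sided permutation p = 0.1, and 3 libraries against 3 allow no smaller value) and the 10 µM libraries were 0.68 above them (exact permutation p = 0.2). The high value at 0 µM is that of replicate 1, the library with low Fasn, and without it the difference between 2 and 0 µM was −0.16.

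**Figure D3:**
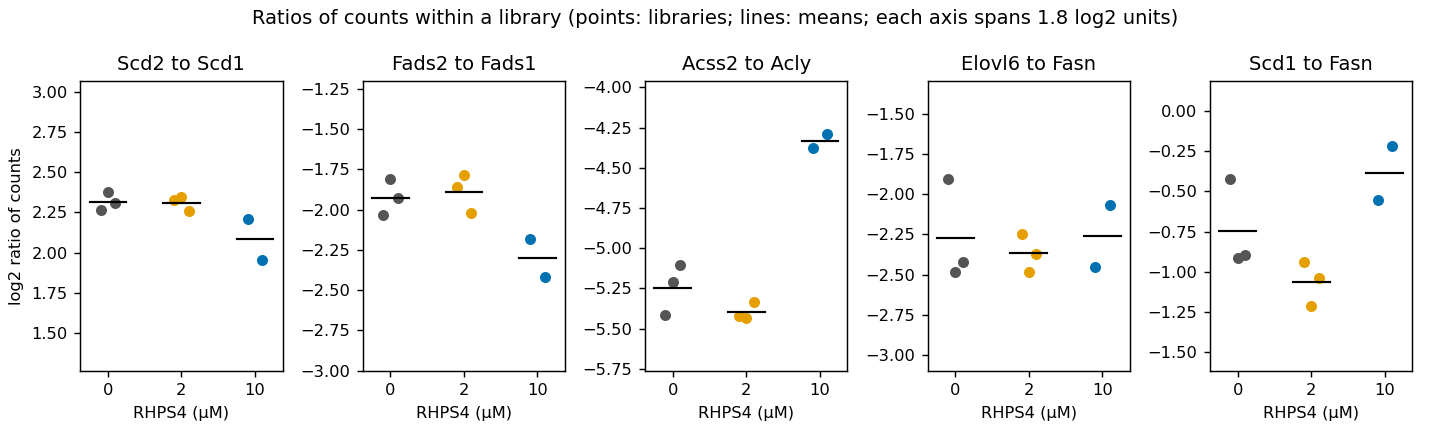
Log2 ratio of counts within a library (y axis, each axis spanning the same range) for 5 pairs of genes at 0, 2 and 10 µM RHPS4 (x axis); points are libraries and lines are means. Both 10 µM libraries stand above all others for Acss2 to Acly and below them for Fads2 to Fads1 and Scd2 to Scd1, while Elovl6 to Fasn overlaps at every dose.

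Fads1, the delta-5 desaturase, and Fads2, the delta-6 desaturase, both act on polyunsaturated acids. Fads1 had 431, 395 and 400.4 CPM without RHPS4, 367, 353 and 372 under 2 µM and 315 and 354 under 10 µM. The 0 µM libraries were the highest, and those of 2 and 10 µM overlapped. Its log2 fold changes of −0.17 at 2 µM (adjusted p = 0.212) and −0.29 ± 0.0810 at 10 µM (SE, edgeR adjusted p = 0.0357) were not called.

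Fads2 had 105, 113 and 105 CPM without RHPS4, 101, 102 and 91.7 under 2 µM and 69.4 and 66.0 under 10 µM. The 2 µM libraries lay just below those of 0 µM, and both 10 µM libraries well below these. From 108 ± 4.32 CPM (SD, n = 3) at 0 µM it fell 1.59-fold to 67.7 ± 2.35 (SD, n = 2) at 10 µM, a log2FC of −0.67 ± 0.0812 (SE, edgeR adjusted p = 0.000383), and the call held in every fit that left out 1 library. Against 2 µM the 1.45-fold lower level (−0.54, edgeR adjusted p = 0.00108) passed the p but not the fold threshold, and it passed both without 2 µM replicate 3 or without 10 µM replicate 1 (−0.61 in each).

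The neighbours Fads2 and Fads1 did not move in parallel at 10 µM. Their count ratio, Fads2 to Fads1, was 0.244, 0.285 and 0.262 without RHPS4, 0.275, 0.291 and 0.246 under 2 µM and 0.220 and 0.187 under 10 µM. Both 10 µM libraries were below all others, by 0.38 on the log2 scale against 0 µM with a pooled SD of 0.134 and by 0.41 against 2 µM with a pooled SD of 0.139 (p = 0.2 for each by the exact two-sided permutation test, which allows no smaller value). The difference against 0 µM stayed between −0.50 and −0.26 with 1 library left out.

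Lpin1 codes for lipin-1, the phosphatidate phosphatase that makes diacylglycerol and also acts as a transcriptional coactivator. It had 51.1, 53.0 and 54.7 CPM without RHPS4, 36.4, 31.4 and 36.7 under 2 µM and 42.8 and 36.4 under 10 µM. All 0 µM libraries were above all treated ones, and those of 2 and 10 µM overlapped. Lpin1 fell 1.52-fold at 2 µM, from 52.9 ± 1.84 to 34.8 ± 3.00 CPM (SD, n = 3 each), with a log2FC of −0.60 ± 0.0901 (SE, edgeR adjusted p = 0.00582), and its −0.42 at 10 µM (adjusted p = 0.0189) was not called. Between 10 and 2 µM the log2 fold change was 0.19, with a 95% interval from −0.04 to 0.41. The call at 2 µM lay near both thresholds and was lost without 0 µM replicate 2 (edgeR adjusted p = 0.0396), 0 µM replicate 3 (0.0386), 2 µM replicate 1 (0.0219) or 2 µM replicate 3 (0.0176), and without 2 µM replicate 2, where the log2FC was −0.53, whereas DESeq2 gave an adjusted p of 5.00e-05.

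Among the regulators of these genes, those of the sterol-sensing arm were named whatever their values. Srebf1, which codes for SREBP1, had 128, 125 and 125 CPM without RHPS4, 109.9, 109 and 108 under 2 µM and 92.6 and 97.8 under 10 µM. Its 3 doses did not overlap, with log2 fold changes of −0.21 at 2 µM (adjusted p = 0.0854) and −0.40 ± 0.0700 at 10 µM (SE, edgeR adjusted p = 0.00380), the latter 1.32-fold. Srebf2, which codes for SREBP2, had 132, 225 and 237 CPM without RHPS4, 126, 171 and 168 under 2 µM and 148 and 109.7 under 10 µM. These libraries overlapped at every dose, and the log2FC of −0.62 ± 0.226 at 10 µM (SE, edgeR adjusted p = 0.0917) was called only without 0 µM replicate 1 (−0.86, adjusted p = 0.00280).

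Insig1, which retains SREBPs in the endoplasmic reticulum and is itself an SREBP target, had 66.4, 61.2 and 60.6 CPM without RHPS4, 65.5, 62.7 and 62.4 under 2 µM and 34.4 and 39.0 under 10 µM. The 0 and 2 µM libraries overlapped, and from 0 to 10 µM Insig1 fell 1.71-fold (log2FC −0.77 ± 0.0863, SE, with edgeR adjusted p = 0.000226). It fell by 0.79 on the log2 scale against 2 µM (edgeR adjusted p = 0.000146). Under total counts alone the change against 0 µM was −0.55 and the call was lost. Insig2 (35.0 ± 3.73 CPM at 0 µM, 27.8 ± 3.90 at 2 µM, SD, n = 3 each, and 41.6 ± 13.2 at 10 µM, SD, n = 2) and Scap (78.7 ± 1.84, 83.6 ± 4.89 and 71.6 ± 6.09 CPM) were not called in any comparison.

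Mid1ip1, whose product promotes the polymerization of acetyl-CoA carboxylase, had 21.8, 19.5 and 19.7 CPM without RHPS4, 26.2, 24.5 and 23.0 under 2 µM and 33.8 and 35.8 under 10 µM. Its doses followed each other upward without overlap. It rose 1.72-fold from 0 to 10 µM (log2FC 0.78 ± 0.0943, SE, with edgeR adjusted p = 0.000376), in every alternative fit too, and its 0.28 at 2 µM (adjusted p = 0.104) was not called. Thrsp, its paralog, had too few counts to be tested. Of the 24 regulators listed, 23 were tested. At 10 µM against 0 µM only Mid1ip1 was called higher and only Insig1 lower, where 1.95% and 1.14% of all tested genes were. The list median was −0.08 beside 0.02 over all tested genes.

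The other genes of the pathway were read as lists. All 11 genes listed for the supply of citrate and NADPH (Slc25a1, Me1 and G6pdx among them) were tested. Only Aacs, which itself makes neither, was called, at 10 µM against 0 µM, where 1.14% of all tested genes were called lower. Aacs, acetoacetyl-CoA synthetase, had 101, 127 and 124 CPM without RHPS4, 102, 116 and 107 under 2 µM and 81.8 and 68.8 under 10 µM, where it fell against 0 µM (log2FC −0.64 ± 0.115, SE, with edgeR adjusted p = 0.00449). The call was lost without 0 µM replicate 2 (edgeR adjusted p = 0.0199), 0 µM replicate 3 (0.0186), 2 µM replicate 2 (0.0102) or 10 µM replicate 2 (0.0517), with the replicate block (0.0170), with only the libraries of both doses in the fit (0.0188) and under total counts alone (0.0231). Of 25 genes for other elongation, desaturation and acyl-CoA steps, 24 were tested and none was called against 0 µM at either dose, with a median at 10 µM of 0.01, where 3.09% of all tested genes were called in either direction. Under total counts alone 2 of them were called at 10 µM against 0 µM. Between 10 and 2 µM 1 of the 24 was called higher, where 3.92% of all tested genes were. In that list Oxsm, the mitochondrial 3-oxoacyl-ACP synthase, rose from 2 to 10 µM (4.23 ± 1.16 CPM, SD, n = 3, to 9.46 ± 3.10 CPM, SD, n = 2, log2FC 1.12, edgeR adjusted p = 0.00873), a call lost without 0 µM replicate 2, 2 µM replicate 1, 2 µM replicate 2 or 10 µM replicate 2 (adjusted p between 0.0173 and 0.114). Of 8 genes known as targets of the liver X receptors, 7 were tested and none was called, with medians of −0.17 at 2 µM and −0.21 at 10 µM, while 1 was called at 2 µM without 0 µM replicate 1. The shares of all tested genes called against 0 µM were 0.497% at 2 µM and 3.09% at 10 µM.

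Sterol synthesis and uptake is the other pathway that SREBPs are known to drive. All 23 genes of that list were tested. None was called at 2 µM, where the median was −0.06, and at 10 µM against 0 µM 9 fell and none rose, with a median of −0.61, where 1.14% of all tested genes were called lower. Without 0 µM replicate 1 the count was 12, and under total counts alone it was 2. Hsd17b7, an enzyme of cholesterol synthesis, had 46.2, 45.1 and 48.2 CPM without RHPS4, 42.2, 44.5 and 45.3 under 2 µM and 25.4 and 25.7 under 10 µM. The 0 and 2 µM libraries overlapped and both 10 µM libraries were far below them, and Hsd17b7 fell 1.82-fold against 0 µM (log2FC −0.86 ± 0.0831, SE, with edgeR adjusted p = 6.92e-05). Cyp51, the lanosterol demethylase, fell by 0.80 on the log2 scale and Idi1, the isopentenyl diphosphate isomerase, by 0.76, calls that were lost under total counts alone (−0.58 and −0.54). Between 10 and 2 µM 7 of the 23 fell and none rose, with a median of −0.50, where 1.59% of all tested genes were called lower, and under total counts alone 4 were called.

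The profiles nearest to each gene were read off as the root mean square difference of centred log2 CPM over the 8 libraries, among the 14295 other tested genes. Hsd17b7, a sterol synthesis enzyme, was nearest to Elovl6 (0.0501), followed by Insig1 (0.0650) and Lrig1 (0.0697). Sc5d, another sterol synthesis enzyme, came after Nrp1 (0.0309) and 1190002N15Rik (0.0394) for Acly (0.0423). For Fasn the nearest were E2f7 (0.0538), Egr3 (0.0769) and Klhl21 (0.0911), for Scd2 Dusp1, Arhgap36 and Iqgap2 (0.0446 to 0.0558), and for Scd1 Chic1, Zbtb40 and Hk2 (0.0398 to 0.0467). The nearest to Fads2 were Bcor, Pcdh7 and S1pr3 (0.0525 to 0.0700), to Fads1 Pdxk, St6gal1 and Six4 (0.0330 to 0.0433), to Acaca Slc25a24, G3bp2 and Naa60 (0.0238 to 0.0295), to Acss2 Eif2ak2, Phkb and Amy1 (0.0538 to 0.0580) and to Lpin1 Nrep, Etv1 and 2900026A02Rik (0.0764 to 0.0869). None of these 30 places was held by another of the 10 genes.

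Among themselves, Scd1 and Fads1 had the smallest difference (0.0835). The nearest of the 10 to Acly was Acaca (0.0998), to Scd2 Fads2 (0.104) and to Elovl6 Fads2 (0.110). Fads2 was in place 28 of 14295 for Elovl6 and 39 for Scd2, Fads1 in place 45 for Scd1, and Scd2 in place 49 for Fads2. Scd1 was in place 117 for Fads1 and 171 for Lpin1, Fads2 in place 136 for Fasn, and Acaca in place 230 for Acly. Acly was in place 799 for Acaca. For Acss2 the best of the other 9 genes, Fads1, came in place 7421 at a difference of 0.329, beside a median of 0.323 over all genes. Profiles of genes in the same libraries share depth and scaling, so these places are a description only.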

How the data were processed

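Total RNA of 8 MEF libraries was sequenced by the authors with 75 bp paired reads. Per the labels and the study's methods, the authors trimmed the reads (Trim Galore, cutadapt), aligned them to mm10 with STAR 2.5.2a and deposited the whole-number counts of uniquely mapped fragments per gene from featureCounts, without normalization. The annotation and strand setting of that counting are not given in the sources used here. From these counts, genes passing filterByExpr were tested in R 4.3.3 with edgeR 4.0.16 (TMM, glmQLFit, glmQLFTest), with the dose as the only factor. SEs were the absolute log2 fold changes over √F. Count ratios used 0.5 added to each count. Depth ran from 10455965 to 26688121 counts, and floors cover counting error only, whereas the 95% intervals of fold changes rest on the spread between libraries in the fit.

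The members and lists were chosen with earlier results of these data known. Named were all 10 members, 7 regulators whatever their values, called genes of each list (at most 4, by smallest p at 10 µM against 0 µM) and the 3 nearest profiles of each member. Pdgfrb, Cd14 and Adipoq are named as markers. Some sterol genes are counted in their list and not reported singly here. Gene models came from GENCODE for GRCm38 and promoters from RefSeq, which differ in some gene starts. In simulated counts for 10 µM against 0 µM over 14065 genes, edgeR called 16 of 50 genes changed 1.5-fold, 39 of 50 changed 2-fold, 42 of 50 changed 3-fold and 42 of 50 changed 4-fold, with 2 false calls. A 1.5-fold change lies on the fold threshold itself, so estimates of such genes fall on either side of it. The counts were drawn with the levels and spread that were estimated from these libraries. Alternatives were RLE factors, TMM over nuclear genes, total counts, other filters and thresholds, DESeq2 1.42.0, only 2 groups in the fit, the replicate block, another pseudocount and each library left out in turn.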

Additional observations from a re-analysis of the deposited data

How the results depend on the processing

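The calls rest on 2 or 3 libraries per dose and on the TMM scaling. With total counts alone the number of the 10 genes called became 0 at 2 µM (from 1), 1 at 10 µM (from 4, now Acss2 alone) and 2 between the doses (from 3). With only the 2 groups compared in the fit, 2 were called at 10 µM, and with no minimum fold change 6 were called between 10 and 2 µM. With 1 library left out the numbers ran from 0 to 1, from 3 to 4 and from 1 to 4. Of the alternative values of the 10 genes' fold changes, 439 kept their direction and side of the thresholds, 25 lost a call, 3 gained one and 13 changed sign, the latter all in comparisons that were not called.
Under total counts the sign turned for Acly (0.044), Fasn (0.074), Cyp51 (0.042) and Hsd17b7 (0.0016) at 2 µM, for Scap (0.081) at 10 µM, and for Scd1 (0.0030) and Fads1 (0.012) between 10 and 2 µM. The log2 fold change of Fasn at 2 µM also turned with TMM over nuclear genes (0.0037), with the replicate block (0.0019) and with only the 2 groups compared (0.0019). With 1 library left out, values at 2 µM ran from −0.066 to 0.028 for Acly, −0.14 to 0.075 for Fasn, −0.0049 to 0.067 for Insig1 and −0.092 to 0.036 for Cyp51, and at 10 µM from −0.14 to 0.52 for Insig2 and −0.018 to 0.35 for Pdk4. The ratio differences at 2 µM ran from −0.031 to 0.027 for Scd2 to Scd1, −0.018 to 0.10 for Fads2 to Fads1 and −0.20 to 0.086 for Elovl6 to Fasn, and the last ran from −0.18 to 0.20 at 10 µM and −0.089 to 0.30 between the doses.
Over all genes, 71 were called at 2 µM, 109 with DESeq2, 107 with no minimum fold change, 178 at an adjusted p under 0.05 and 6 to 144 with 1 library left out. At 10 µM 442 were called, 914 under total counts, 747 with no minimum fold change, 727 at an adjusted p under 0.05 and 235 to 633 with 1 library left out. Between the doses 788 were called, 1539 with no minimum fold change, 1190 at an adjusted p under 0.05 and 444 to 884 with 1 library left out. The share called higher moved under total counts from 23.9 to 39.4% at 2 µM, from 63.1 to 92.6% at 10 µM and from 71.2 to 91.7% between the doses, and at 10 µM it was 46.4% with DESeq2 and 49.1% with no filter. The causes of these shifts were not tested.
The labels number the libraries within each dose. The deviations of same-numbered libraries of 0 and 2 µM from the mean of their dose had correlations of 0.199, 0.0845 and 0.161, each the highest for its number between these doses. The same-numbered ones with 10 µM were between −0.145 and −0.0212. With 2 libraries at 10 µM their deviations mirror each other, so these values cannot decide on pairing. Whether the numbers pair the libraries was not settled. The main fit did not use them, and the replicate block, which adds the number as a factor, was an alternative. With the replicate block, 54, 322 and 735 genes were called in the 3 comparisons, and of the 10 genes 1, 3 and 3, with Fasn no longer called at 10 µM (−0.75, edgeR adjusted p = 0.0171). The Elovl6 to Fasn difference at 10 µM was −0.064 within replicate numbers.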

Other observations

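Lpin1 feeds glycerolipid synthesis, the path from glycerol phosphate to triacylglycerol. Of 26 other genes of that path (acyltransferases, lipins and diacylglycerol acyltransferases among them), 23 were tested and none was called at 2 or 10 µM against 0 µM, with medians of −0.01 and 0.04, where 0.497% and 3.09% of all tested genes were called. At 10 µM against 0 µM 2 were called under total counts alone and 2 with no minimum fold change. Between 10 and 2 µM 1 of the 23 was called higher, where 3.92% of all tested genes were. It was Dgat2, which makes triacylglycerol. Dgat2 had 7.37, 6.99 and 6.75 CPM without RHPS4, 6.26, 5.30 and 5.71 under 2 µM and 8.67 and 11.7 under 10 µM. Its doses did not overlap, with 2 µM lowest and 10 µM highest, the same order of doses as for Acss2. It rose from 2 to 10 µM (log2FC 0.81 ± 0.154, SE, with edgeR adjusted p = 0.00370), a call lost with the replicate block (0.79, adjusted p = 0.0134), without 2 µM replicate 2 (0.76, adjusted p = 0.0195), without 2 µM replicate 3 (0.79, adjusted p = 0.0152) and without 10 µM replicate 2 (0.55, adjusted p = 0.0517).

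Fatty acid oxidation runs opposite to synthesis. Of 23 genes of that list 21 were tested and none was called against 0 µM at either dose, with medians of −0.09 at 2 µM and 0.12 at 10 µM. Of all tested genes 0.497% were called at 2 µM and 3.09% at 10 µM. Under total counts alone 2 were called at 10 µM, and at 2 µM 1 was called without 2 µM replicate 3, with no minimum fold change or at an adjusted p under 0.05. Between 10 and 2 µM 1 of the 21 was called higher, where 3.92% of all tested genes were. Pdk4, the kinase that holds back pyruvate oxidation, had 11.8, 12.7 and 15.9 CPM without RHPS4, 8.37, 8.15 and 9.75 under 2 µM and 13.8 and 17.6 under 10 µM. The 2 µM libraries were below all others, and those of 0 and 10 µM overlapped. It rose from 2 to 10 µM (log2FC 0.83 ± 0.160, SE, with edgeR adjusted p = 0.00427), a call lost without 2 µM replicate 1 (0.79, adjusted p = 0.0158), without 2 µM replicate 2 (0.78, adjusted p = 0.0226) and without 10 µM replicate 2 (0.61, adjusted p = 0.0607), and its −0.63 at 2 µM against 0 µM (edgeR adjusted p = 0.0376) was not called.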
